A study of Homo sapiens with 4 samples.

Results

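The 10 genes described here, ATF4, DDIT3, ASNS, CHAC1, TRIB3, PSAT1, PHGDH, GDF15, NUPR1 and DDIT4, belong to the integrated stress response that runs through the transcription factor ATF4. They were chosen by name, and all 10 were found among the 46427 genes of the deposited gene table. RNA came from NCI-H1299, a line of human non-small cell lung cancer, and from a derivative of it in which DDX21, a nucleolar RNA helicase, had been knocked out (DDX21 KO). The 4 groups were DDX21 KO cells transfected with a mimic of the microRNA miR-34a, DDX21 KO cells without treatment, H1299 cells transfected with the mimic, and H1299 cells without treatment, each with 1 library. Transfection used a lipid reagent with 25 nM RNA and a harvest at 48 h. The labels do not say which part of DDX21 was edited, whether the knockout line came from a single clone, or whether non-treated cells received a control RNA, so an effect of miR-34a and one of the transfection cannot be told apart.

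In the integrated stress response, kinases that sense amino acid shortage, misfolded protein in the endoplasmic reticulum, double-stranded RNA or mitochondrial and heme stress phosphorylate the translation initiation factor eIF2. Most translation then drops, while the ATF4 mRNA, whose upstream reading frames normally hold ribosomes back, is translated better, so ATF4 protein can change without a change of its mRNA. ATF4 binds composite C/EBP-ATF response elements together with other bZIP proteins and induces genes of amino acid synthesis and uptake, of tRNA charging, and of feedback and cell death. Protein levels and eIF2 phosphorylation were not measured here.

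Sequences bear on 2 questions, whether miR-34a could pair with these mRNAs and whether their promoters hold an ATF4 element. The mature miRNA (RefSeq, GRCh38.p14, chr1:9151735-9151756, minus strand) is shown with its seed, bases 2 to 8, in capitals.
hsa-miR-34a-5p: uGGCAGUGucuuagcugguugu

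No seed match, CACTGCC or ACTGCCA, lay in the longest 3' UTR annotated in GENCODE 29 for any of the 10 genes, nor in the 3' UTR of any other of their coding transcripts, while 21.2% of 19132 genes held one in their longest 3' UTR. The 3' UTRs searched ran from 83 bases for ATF4 to 4975 bases for NUPR1. Letters absent from these windows say nothing about pairing elsewhere. The RefSeq transcript models to which reads were assigned were not searched. Among the genes of the pathway lists described further on, 110 of 129 were matched to a 3' UTR by symbol, and 23 of them held a seed match in the longest one. Of those that entered, 1 of 20 was called lower with miR-34a in DDX21 KO cells (XBP1) and 2 of 19 in H1299 cells (XBP1 and SLC1A4), and none was called higher. Of the list genes without a match, 0 of 82 were called lower in DDX21 KO and 0 of 81 in H1299 cells. In the same order 3 and 2 were called higher. Among all entering genes 1.69% and 4.27% were called lower. With a match, 14 of 20 ratios lay below 0 in DDX21 KO and 17 of 19 in H1299 cells, at medians of -0.16 and -0.24. Without one it was 33 of 82 and 32 of 81, at medians of 0.07 and 0.07. Whether a match goes with a lower ratio was not tested. Most genes with a match were not called, among them SYVN1, ADM2 and EIF2S2. These held 2 matches each, with overlapping matches counted separately. The unfolded protein response factor XBP1 held 2 matches at separate places. The XBP1 matches are printed as examples, chosen because XBP1 was called lower in both lines, so they say nothing on whether a match goes with a lower level. The sites lie on chromosome 22, minus strand, of GRCh38, with the match in capitals.
XBP1, chr22:28795322-28795346: ttcatccagcCACTGCCcaaagcca
XBP1, chr22:28795121-28795145: ttgactattaCACTGCCtggaggat

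For the promoters, TGATGNAA, the core of the C/EBP-ATF response element, was searched on both strands from 250 bases before to 50 bases after annotated gene starts. RefSeq windows were found for 9 of the 10 genes, 14 windows in all, and ASNS and CHAC1 held a match, against 3.62% of all 35116 windows. Both are shown with the match in capitals, read in the direction of transcription. The ASNS match begins 68 bases before the gene start, and that of CHAC1, which reads TGATGCAA on the opposite strand, 209 bases before it. Elements farther away, such as those known within introns or upstream of other members, are outside these windows.
ASNS, chr7:97872458-97872487, minus strand: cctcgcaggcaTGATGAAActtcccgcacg
CHAC1, chr15:40953251-40953280, plus strand: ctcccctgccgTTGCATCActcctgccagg

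Library totals lay between 26868358 and 36263145 estimated counts. Levels are given as CPM, counts set to a common library size after TMM scaling, the trimmed mean method of edgeR. A log2 ratio sets 2 libraries against each other and carries its 95% counting interval in brackets. Calls of a gene as higher or lower required a ratio of at least 2-fold and an interval that excluded no change. With 1 library per group there is no replicate check and no p-value, and each call sets libraries, not conditions, against each other. PCR copies are not independent molecules, so the intervals cover counting error only. DDX21 mRNA stood at 182 and 206 CPM in miR-34a and non-treated DDX21 KO cells, against 588 and 722 CPM in miR-34a and non-treated H1299 cells, so it was reduced but present. Of the cytoskeletal genes VIM stood between 1730 and 2092 CPM in the 4 libraries, and KRT8 between 181 and 617 CPM. In all, 7 markers of blood, endothelial, alveolar and liver cells summed to 0.0608 to 0.780 CPM per library, with PTPRC, CD3E, PECAM1 and SFTPC listed at 0 in all 4. In such bulk RNA, a lower level per cell and fewer expressing cells cannot be told apart.

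**Figure D1:**
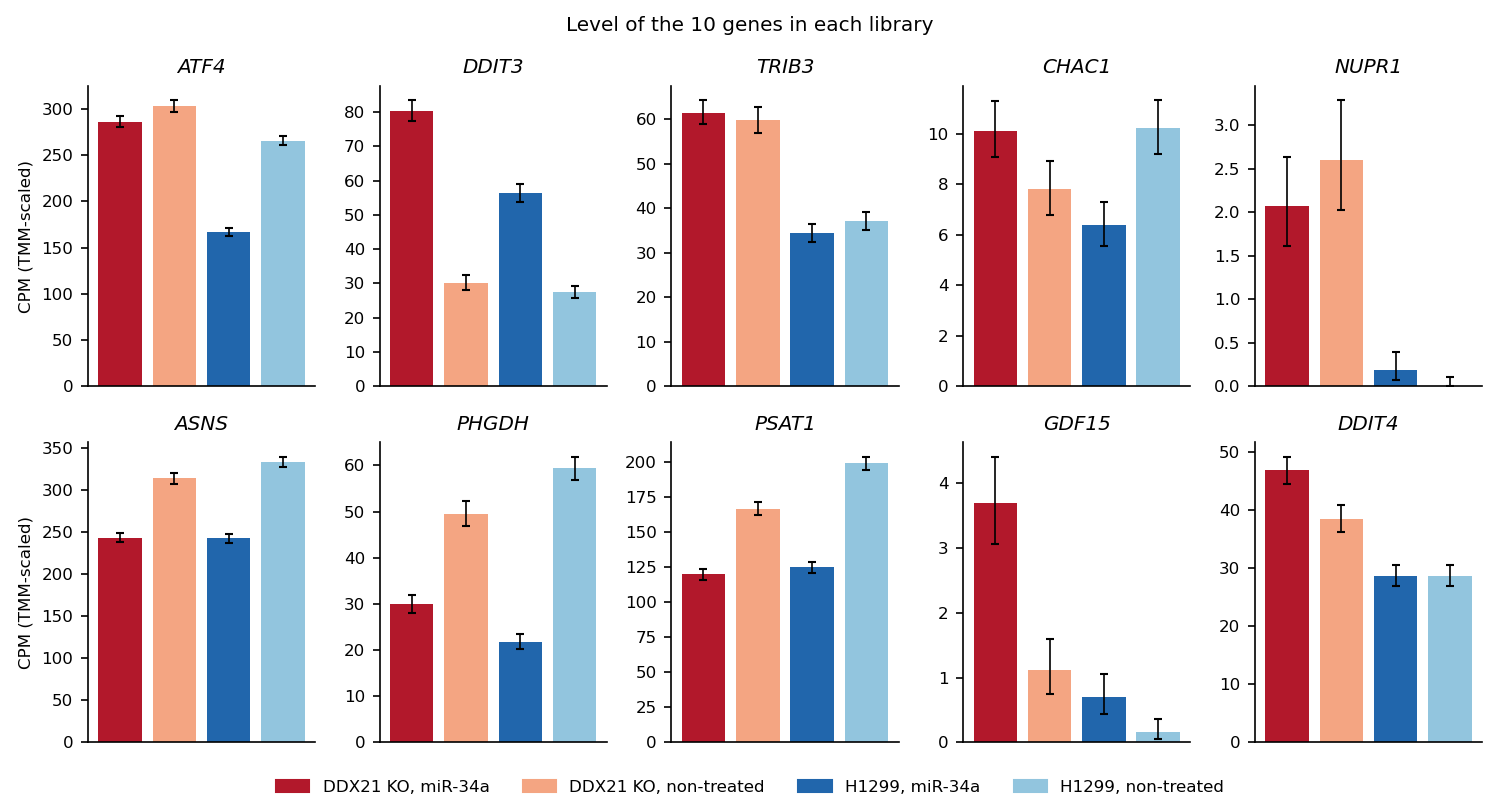
Level of each of the 10 genes in CPM (vertical axes, starting at 0, 1 scale per gene) in the 4 libraries, with bars for the library value and lines for the 95% Poisson counting interval. DDIT3 is high in both miR-34a libraries, and PHGDH, PSAT1 and ASNS are low in both. ATF4, TRIB3, NUPR1, GDF15 and DDIT4 are higher in both DDX21 KO libraries than in both H1299 libraries. For GDF15, non-treated DDX21 KO and miR-34a H1299 cells could not be distinguished by counting error. For ATF4 the order depends on the transcripts counted.

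Compared per length, in the authors' FPKM, ASNS was the most abundant or second to ATF4 in all 4 libraries, and NUPR1 was the least abundant. In miR-34a DDX21 KO cells ATF4 led with 125 FPKM, followed by ASNS with 91.9 and DDIT3 with 75.8. In non-treated DDX21 KO cells ASNS and ATF4 stood at 118 and 115 FPKM. In miR-34a H1299 cells ASNS led with 90.5 FPKM and ATF4 had 38.9. In non-treated H1299 cells ATF4 stood at 141 FPKM and ASNS at 125. GDF15 reached no more than 2.74 FPKM, and NUPR1 no more than 0.426 FPKM.

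ATF4 (gene 468, chromosome 22, 39514494 to 39522686), the factor that drives the response, had 9385 and 8151 counts in miR-34a and non-treated DDX21 KO cells, against 5480 and 9490 in miR-34a and non-treated H1299 cells, or 286, 303, 167 and 266 CPM. The miR-34a H1299 library was the low one, and the other 3 lay close together, though the counting interval of each step in the order excluded no change. The log2 ratio of miR-34a to non-treated cells was -0.08 (-0.12 to -0.04) in DDX21 KO and -0.67 (-0.72 to -0.63) in H1299 cells, within 2-fold in both.

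How far ATF4 differed depended on the transcript to which the reads were assigned. The authors' transcript table gives ATF4 3 models, the curated NM_182810 and NM_001675, of 1420 and 2027 bases, and the predicted XM_017028807, of 7114 bases, which starts upstream and overlaps 3641 bases of the locus of MIEF1, a mitochondrial fission factor on the same strand. The long model took 23.1% of ATF4 counts in miR-34a and 35.5% in non-treated DDX21 KO cells, against 72.6% in miR-34a and 8.75% in non-treated H1299 cells. Over the curated models alone, ATF4 had 220 and 195 CPM in miR-34a and non-treated DDX21 KO cells, and 45.6 and 243 CPM in miR-34a and non-treated H1299 cells. On that count ATF4 was lower in transfected H1299 by a log2 ratio of -2.41 (-2.49 to -2.33), a 5.32-fold difference, and the ratio in DDX21 KO was 0.17 (0.12 to 0.23).

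The deposited FPKM, which weighs reads by the length of the model, gave ATF4 a log2 ratio of -1.86 in H1299. The long model itself had a log2 ratio of 2.38 (2.27 to 2.49) in H1299 and of -0.70 (-0.78 to -0.62) in DDX21 KO cells. The 3' UTR of MIEF1 holds a miR-34a seed match, in the window chr22:39515152-39515176. That window lies within the span of the long ATF4 model, and whether it lies in an exon of that model was not tested. MIEF1 stood at 8.67 and 35.8 CPM in miR-34a and non-treated DDX21 KO cells, against 7.36 and 36.7 CPM in miR-34a and non-treated H1299 cells. MIEF1 was thus lower with miR-34a in both lines, while the share of the long ATF4 model went opposite ways in them. Whether reads were exchanged between the models, or between MIEF1 and ATF4, was not tested. Pseudogene copies of ATF4 held at most 37 counts each.

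**Figure D2:**
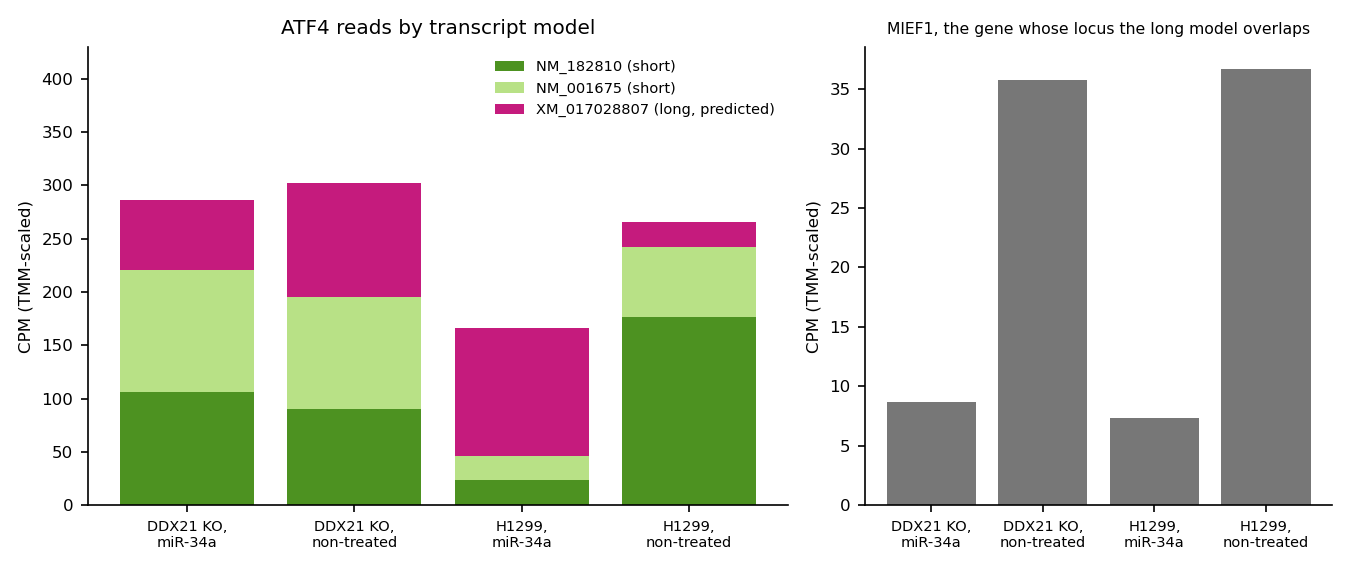
CPM assigned to the 3 ATF4 transcript models (left, stacked) and to the overlapping gene MIEF1 (right) in the 4 libraries. In miR-34a H1299 cells 72.6% of ATF4 reads sit on the long predicted model, and the 2 curated models together stand at 45.6 CPM, against 195 to 243 CPM in the other libraries.

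DDIT3 (gene 1649, chromosome 12, 57516588 to 57520517), which encodes CHOP, a bZIP partner of C/EBP proteins that promotes death under lasting stress, was the member called higher with miR-34a in both lines, GDF15 having too few counts in H1299 to enter there. DDIT3 had 2633 and 814 counts in miR-34a and non-treated DDX21 KO cells and 1855 and 979 in miR-34a and non-treated H1299 cells, or 80.3, 30.2, 56.4 and 27.4 CPM. Both transfected libraries lay above both non-treated ones. The log2 ratio to non-treated cells was 1.41 (1.30 to 1.53) in DDX21 KO and 1.04 (0.93 to 1.15) in H1299 cells.

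The lower end of the second interval lies below a 2-fold change. The transcript NM_004083 carried most DDIT3 counts in transfected cells, and alone had log2 ratios of 1.52 (1.38 to 1.67) in DDX21 KO and 1.35 (1.20 to 1.51) in H1299 cells. The end of DDIT3 overlaps 68 bases of the locus of MARS1, on the other strand. MARS1, the methionyl-tRNA synthetase gene, had log2 ratios of -0.13 and -0.29 with miR-34a in DDX21 KO and H1299 cells, the other way. Without strand stated for the counting, reads in that overlap could come from either gene.

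TRIB3 (gene 57761, chromosome 20, 380629 to 397559) encodes a pseudokinase induced by ATF4 and CHOP that dampens ATF4 activity. It stood at 61.4 and 59.7 CPM in miR-34a and non-treated DDX21 KO cells and at 34.4 and 37.1 CPM in miR-34a and non-treated H1299 cells. The lines were apart, and over all models the libraries within each line could not be distinguished by their counting intervals. Over the curated models the log2 ratio with miR-34a in H1299 was -0.12 (-0.23 to -0.0003). There the transcript NM_021158, with 93.7% of the counts without treatment, stood at -0.39 (-0.52 to -0.26), and NM_001301196 at 1.78 (1.43 to 2.19). In DDX21 KO cells NM_021158 stood at -0.01 (-0.11 to 0.09). DDX21 KO set against H1299 gave TRIB3 log2 ratios of 0.84 (0.73 to 0.94) with miR-34a and 0.69 (0.58 to 0.79) without, both within 2-fold.

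CHAC1 (gene 79094, chromosome 15, 40942137 to 40956518), an enzyme that degrades glutathione, is a target of ATF4 in many cells. It had 332 and 210 counts in miR-34a and non-treated DDX21 KO cells, against 210 and 365 in miR-34a and non-treated H1299 cells, or 10.1, 7.80, 6.39 and 10.2 CPM. The highest libraries, non-treated H1299 and miR-34a DDX21 KO, could not be told apart by counting error. The log2 ratio with miR-34a was 0.37 (0.12 to 0.63) in DDX21 KO and -0.67 (-0.93 to -0.43) in H1299 cells, so neither reached 2-fold, but their difference of 1.05 (0.70 to 1.40) did. Over the curated CHAC1 models the ratios were 0.78 (0.47 to 1.11) and -0.60 (-0.88 to -0.33), in the same directions.

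NUPR1 (gene 26471, chromosome 16, 28532708 to 28538974), a small chromatin protein of stress responses, was the member in which the lines differed by the highest fold. It had 68 and 70 counts in miR-34a and non-treated DDX21 KO cells, against 6 and 0 in miR-34a and non-treated H1299 cells. Both DDX21 KO libraries lay above both H1299 libraries. Between the lines with miR-34a the log2 ratio was 3.13 (2.31 to 5.0). Without it NUPR1 was at least 30.9-fold higher in DDX21 KO cells against a floor of 3 counts in the H1299 library, a figure that leaves out counting error in the DDX21 KO library. The counting interval of the log2 ratio began at 4.61. A 0 in a table of estimated counts can also be a failed assignment, and then no bound holds. The NUPR1 models counted span 5291 and 5345 bases.

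Asparagine synthetase ASNS (gene 440, chromosome 7, 97851677 to 97928441) is a classic target of ATF4 under amino acid shortage. It stood at 244 and 314 CPM in miR-34a and non-treated DDX21 KO cells and at 243 and 334 CPM in miR-34a and non-treated H1299 cells. Both transfected libraries were low and could not be distinguished from each other. The log2 ratio with miR-34a was -0.37 (-0.41 to -0.32) in DDX21 KO and -0.46 (-0.50 to -0.42) in H1299 cells, and the transcript NM_183356, which held 60.4% to 78.1% of the counts, had ratios of -0.04 and -0.19. ASNS shares exons with the read-through locus CZ1P-ASNS, which held 235 to 601 counts. It also has pseudogene copies outside its locus, of which ASNSP1 held 127 to 208 counts, so small differences in ASNS are uncertain.

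PHGDH and PSAT1 encode the enzymes of the opening steps of serine synthesis from a glycolytic intermediate. PHGDH (gene 26227, chromosome 1, 119711934 to 119744218) had 981 and 1335 counts in miR-34a and non-treated DDX21 KO cells and 718 and 2119 in miR-34a and non-treated H1299 cells, or 29.9, 49.6, 21.8 and 59.3 CPM. Both transfected libraries lay below both non-treated ones. PHGDH fell in H1299 cells with miR-34a, with a log2 ratio of -1.44 (-1.57 to -1.32), and stood at -0.73 (-0.85 to -0.61) in DDX21 KO cells. Over its curated transcript the ratios were -0.82 in DDX21 KO and -1.17 in H1299 cells, where the predicted models held more reads without treatment.

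PSAT1 (gene 29968, chromosome 9, 78297125 to 78330093) showed the same order of libraries by treatment, with 120 and 167 CPM in miR-34a and non-treated DDX21 KO cells and 125 and 199 CPM in miR-34a and non-treated H1299 cells. Its log2 ratios were -0.48 (-0.54 to -0.41) in DDX21 KO and -0.67 (-0.73 to -0.62) in H1299 cells. The step that follows them in serine synthesis, PSPH, stood at -0.07 in DDX21 KO and 0.11 in H1299 cells.

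GDF15 (gene 9518, chromosome 19, 18382170 to 18389176), a secreted stress hormone that reduces appetite, had 121 and 30 counts in miR-34a and non-treated DDX21 KO cells, against 23 and 6 in miR-34a and non-treated H1299 cells. Its levels were 3.69, 1.11, 0.699 and 0.168 CPM in the same order, highest in transfected knockout cells. Non-treated DDX21 KO and miR-34a H1299 cells could not be distinguished by counting error. The log2 ratio with miR-34a was 1.67 (1.14 to 2.36) in DDX21 KO cells. In H1299, where neither library reached 50 counts, it was 1.74 (0.72 to 3.64), and 8 of the 23 transfected counts lay on a predicted model. Over the curated model the H1299 ratio was 1.18 (-0.007 to 3.09), an interval that includes no change. GDF15 was the only member listed in the authors' deposited table of comparisons, which gives it folds of 3.38 and 4.09 with miR-34a in DDX21 KO and H1299 cells. The authors' deposited table gives all 4 GDF15 comparisons a Benjamini-Hochberg adjusted p of 1.

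DDIT4 (gene 54541, chromosome 10, 72273924 to 72276036) encodes REDD1, an inhibitor of the growth kinase complex mTORC1 that is also induced by hypoxia and glucocorticoids. DDIT4 had 1537 and 1038 counts in miR-34a and non-treated DDX21 KO cells and 946 and 1028 in miR-34a and non-treated H1299 cells, or 46.9, 38.5, 28.8 and 28.8 CPM. The H1299 libraries did not differ beyond counting error. The log2 ratio with miR-34a was 0.28 (0.17 to 0.40) in DDX21 KO and 0.00 (-0.13 to 0.13) in H1299 cells.

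The question of the first comparison was what miR-34a did in each line. In DDX21 KO cells all 10 members entered, that is, had at least 50 counts in at least 1 of the libraries compared. There 2 members rose, DDIT3 and GDF15, against 1.62% of 13382 entering genes, and none fell, against 1.69%. GDF15 entered through the transfected library alone, at 121 against 30 counts. In H1299 cells 8 members entered, of which DDIT3 rose, against 3.62% of 13597 genes, and PHGDH fell, against 4.27%. The median log2 ratio of the entering members was -0.02 in DDX21 KO and -0.57 in H1299 cells, beside 0.0002 and 0.003 for all entering genes. The members therefore did not move as a block: in H1299, DDIT3 stood above 1 while ATF4, CHAC1, PSAT1 and ASNS stood between -0.67 and -0.46.

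The miR-34a ratio in DDX21 KO minus that in H1299 lay beyond 2-fold upward for CHAC1, against 2.13% of 13964 genes, and downward for NUPR1, against 2.07%. For NUPR1 it was -2.36 (-4.65 to -0.08), which rests on 6 and 0 counts in H1299, and it was not called with a prior count of 0.5 or with FPKM. Single values were 0.71 (0.54 to 0.88) for PHGDH, 0.59 (0.53 to 0.66) for ATF4, 0.37 (0.21 to 0.53) for DDIT3 and 0.28 (0.11 to 0.45) for DDIT4. With the curated models ATF4 joined the called genes, at 2.59 (2.49 to 2.68).

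**Figure D3:**
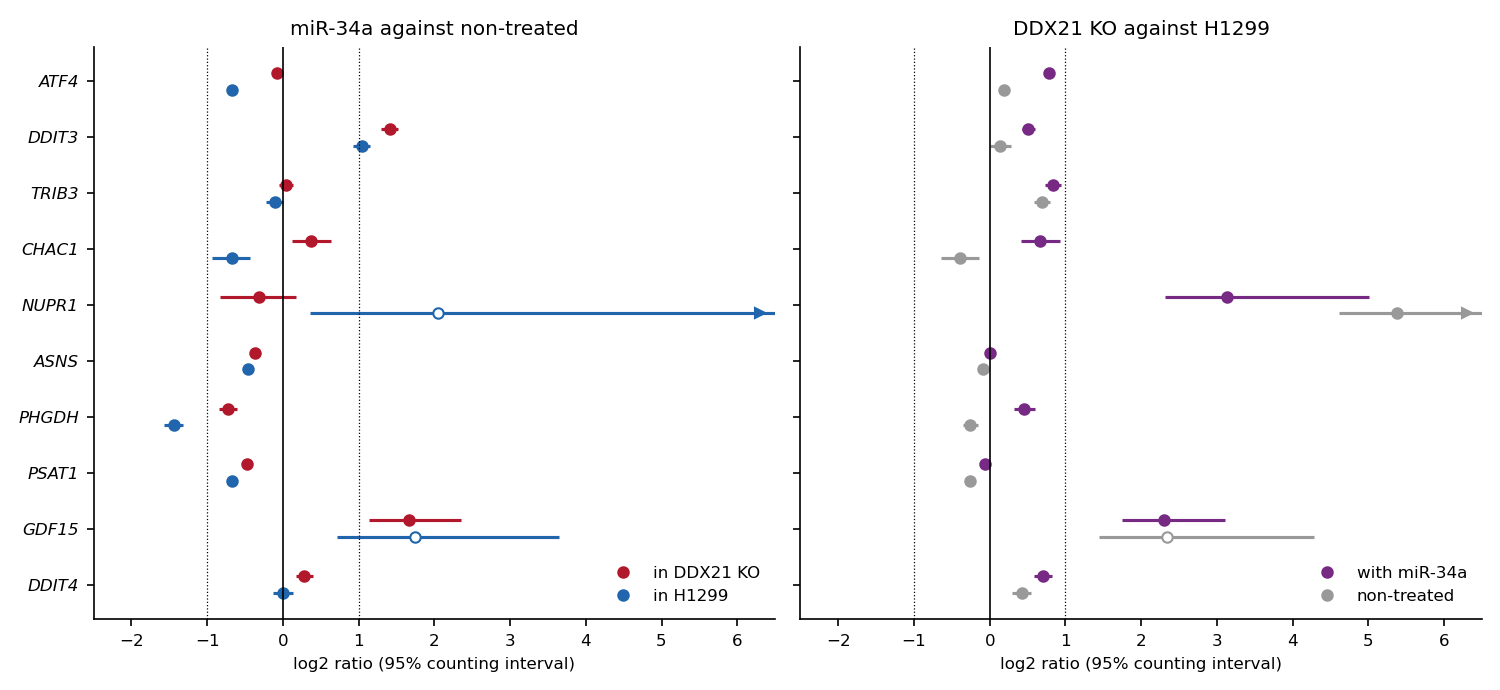
Log2 ratios of the 10 genes with 95% counting intervals, for miR-34a against non-treated cells (left) and DDX21 KO against H1299 cells (right). Dotted lines mark 2-fold, open points have under 50 counts in both libraries, and arrows mark an interval with no upper end. DDIT3 lies beyond 2-fold in both lines on the left, and NUPR1 lies beyond 2-fold in both comparisons on the right.

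The second question was how the knockout line differed from H1299 at the same treatment. With miR-34a, NUPR1 and GDF15 were higher in DDX21 KO cells, 2 of 10 entering members against 3.99% of 13621 genes. None was lower, against 2.96%. Both called members entered through the DDX21 KO library alone, with 68 against 6 counts for NUPR1 and 121 against 23 for GDF15. The tally is therefore a description only. GDF15 had a log2 ratio of 2.30 (1.75 to 3.11). DDIT4, ATF4 and CHAC1 stood at 0.70 (0.59 to 0.82), 0.78 (0.73 to 0.83) and 0.66 (0.41 to 0.92), within 2-fold, and PSAT1 and ASNS at -0.06 and 0.00. Over the curated models ATF4 was 4.83-fold higher in DDX21 KO cells, a log2 ratio of 2.27 (2.19 to 2.35).

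Without treatment, NUPR1 alone of 9 entering members was called higher, against 3.79% of 13600 genes, and none lower, against 2.75%. NUPR1 entered through the DDX21 KO library alone, at 70 against 0 counts. GDF15, under the count minimum in both libraries, had a log2 ratio of 2.34 (1.44 to 4.28), while DDIT3 stood at 0.14 and CHAC1 at -0.39 (-0.64 to -0.14). ATF4 stood at 0.19 (0.14 to 0.23) over all its models, and the sign turned over the curated ones, at -0.31 (-0.36 to -0.26), and in FPKM, at -0.29. The median of the members was 0.68 with miR-34a and 0.14 without, beside -0.007 and -0.02 for all genes. Each of these comparisons shares its libraries with those of miR-34a, so their values are not independent of each other.

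The other genes of the pathway were described from lists, ordered from the sensors to the targets. The eIF2 kinases and their upstream sensors held no called member in either line with miR-34a. Their medians were -0.05 in DDX21 KO and -0.03 in H1299 cells, with 5 and 4 of 8 ratios below 0. EIF2AK3, which encodes PERK, the kinase of the endoplasmic reticulum, stood at 0.57 and 0.21. The kinase gene EIF2AK1 had the lowest ratios of the list, -0.23 and -0.48. The 8 subunits of eIF2 and its exchange factor eIF2B lay between -0.24 and 0.31 in both lines, with none called.

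Among the 5 subunits of the eIF2 phosphatases 1 was called with miR-34a in DDX21 KO and 0 in H1299 cells. The shares of all entering genes called higher were 1.62% and 3.62%. PPP1R15A, the stress-induced GADD34 that ends the response, rose in DDX21 KO cells, at 64.5 against 25.6 CPM, a log2 ratio of 1.33 (1.21 to 1.46). In H1299 it stood at 42.8 against 23.1 CPM, a ratio of 0.89 (0.76 to 1.01). Of the 8 bZIP partners 1 rose in each line, beside 1.62% of all entering genes in DDX21 KO and 3.62% in H1299 cells. ATF3, a stress-induced repressor, rose in DDX21 KO cells with a log2 ratio of 1.29 (1.07 to 1.54) and stood at 0.90 (0.70 to 1.10) in H1299. CEBPD rose in H1299 at 1.27 (0.96 to 1.62) and stood at 0.95 (0.67 to 1.25) in DDX21 KO cells. Of the 8, 1 was called higher in DDX21 KO than in H1299 cells with miR-34a and 1 without, each time CEBPA, a factor of differentiation. Among all entering genes 3.99% and 3.79% were called higher. CEBPA stood at 6.10 against 1.00 CPM with miR-34a and 3.75 against 1.40 CPM without. It had 33 and 50 counts in miR-34a and non-treated H1299 cells. Its miR-34a ratios differed by 1.15 (0.44 to 1.86), the 1 call of that list for the difference, beside 2.13% of all entering genes.

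Amino acid synthesis genes beyond the members had none of 15 called with miR-34a in either line. Their ratios lay below 0 for 13 in DDX21 KO and 12 in H1299 cells, beside 6685 of 13382 and 6775 of 13597 among all entering genes, and their medians were -0.28 and -0.25. PYCR1, of proline synthesis, stood at -0.39 and -0.86, and SHMT2, which passes serine carbon to folate in mitochondria, at -0.63 and -0.47. Between the non-treated lines 1 of 15 was lower in DDX21 KO cells and 1 higher, beside 2.75% and 3.79% of all entering genes. CTH, of cysteine synthesis, stood at -1.06 (-1.41 to -0.74), and ASS1, of arginine synthesis, at 1.98 (1.46 to 2.67). ASS1 had 100 against 32 counts there. The miR-34a ratios of ASS1, -0.24 in DDX21 KO and 0.96 in H1299 cells, differed by -1.19 (-1.91 to -0.47). Of the entering amino acid transporters 1 of 9 fell with miR-34a in H1299 and 0 of 10 in DDX21 KO cells. Among all entering genes 4.27% and 1.69% were called lower. SLC1A4, a carrier of serine and alanine, fell in H1299, at 7.91 against 16.1 CPM, a log2 ratio of -1.02 (-1.24 to -0.81). It stood at -0.44 (-0.61 to -0.27) in DDX21 KO cells. Between the lines 2 of 10 entering transporters were higher in DDX21 KO cells with miR-34a and 1 of 10 without. The shares of all entering genes called higher were 3.99% and 3.79%. SLC1A4 was higher with miR-34a, at 1.09 (0.88 to 1.31). The glycine transporter SLC6A9 was higher both with and without miR-34a, at 1.98 (1.29 to 3.04) and 1.61 (1.11 to 2.24). It entered through the DDX21 KO libraries alone, with 15 and 39 counts in miR-34a and non-treated H1299 cells. The leucine transporter subunits SLC7A5 and SLC3A2 stood at -0.13 and 0.13 in DDX21 KO and at -0.78 and -0.35 in H1299 cells, and the cystine carrier SLC7A11 at 0.34 and -0.01.

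The 13 tRNA synthetases known as ATF4 targets had medians of -0.15 in DDX21 KO and -0.27 in H1299 cells, and the 7 not known as targets -0.04 and -0.03, with no call in either list. AARS1 stood at -0.16 and -0.56, and WARS1, which interferon also induces, at 0.34 and 0.78. Among other ATF4 targets none was called with miR-34a, with medians of 0.13 and -0.08 and with 3 of 11 ratios below 0 in DDX21 KO and 6 of 10 in H1299 cells. KLHL24 stood at 0.36 and 0.81, VLDLR, a lipoprotein receptor, at 0.39 and 0.29, and the angiogenic factor VEGFA at 0.51 and -0.09. The mTORC1 inhibitor SESN2 stood at -0.08 and -0.16, the secreted STC2 at 0.13 and -0.66, and EIF4EBP1, a brake on translation, at -0.40 and -0.59. Between the lines with miR-34a, 2 of 11 entering genes of this list were higher in DDX21 KO cells, beside 3.99% of all entering genes. They were STC2, at a log2 ratio of 1.04 (0.90 to 1.19), and ADM2, at 1.15 (0.52 to 1.93). ADM2 entered through the DDX21 KO library alone, at 60 against 26 counts.

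The ATF6 and XBP1 branches of the unfolded protein response served as a second reading of endoplasmic reticulum stress. XBP1 itself fell in both lines, at 25.8 against 56.6 CPM in DDX21 KO and 19.5 against 48.5 CPM in H1299 cells, log2 ratios of -1.13 (-1.26 to -1.01) and -1.31 (-1.45 to -1.18). The other 19 genes were not called, and the list's medians were 0.14 and 0.09. Among all entering genes 1.69% and 4.27% were called lower in DDX21 KO and H1299 cells. The chaperone HSPA5 stood at 0.50 in DDX21 KO and -0.16 in H1299 cells, and DNAJB9 at 0.39 and 0.72.

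Of the 4 death genes linked to CHOP 1 was called with miR-34a in H1299 and 0 in DDX21 KO cells. Among all entering genes 3.62% and 1.62% were called higher there. TNFRSF10B, the receptor DR5, rose in H1299 at 1.04 (0.96 to 1.12) and stood at 0.57 (0.49 to 0.65) in DDX21 KO cells. The BCL2 family genes BBC3, BCL2L11 and PMAIP1 stood at 0.87, 0.23 and 0.04 in DDX21 KO cells and at 0.61, 0.16 and -0.29 in H1299 cells. The medians of these 4 genes were 0.40 in DDX21 KO and 0.39 in H1299 cells. The mTORC1 regulators around DDIT4 had none called with miR-34a in either line. Of 5 entering hypoxia genes 1 was called in DDX21 KO cells, ADM, at 45.5 against 22.7 CPM, and 0 in H1299 cells. The shares of all entering genes called higher were 1.62% and 3.62%. Between the non-treated lines 1 of 7 entering mTORC1 regulators was higher in DDX21 KO cells, beside 3.79% of all entering genes. It was SESN3, an mTORC1 inhibitor of the sestrin family, at 1.33 (1.03 to 1.67). FGF21, SLC7A3, CA9 and TXNIP were listed at 0 in all 4 libraries.

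**Figure D4:**
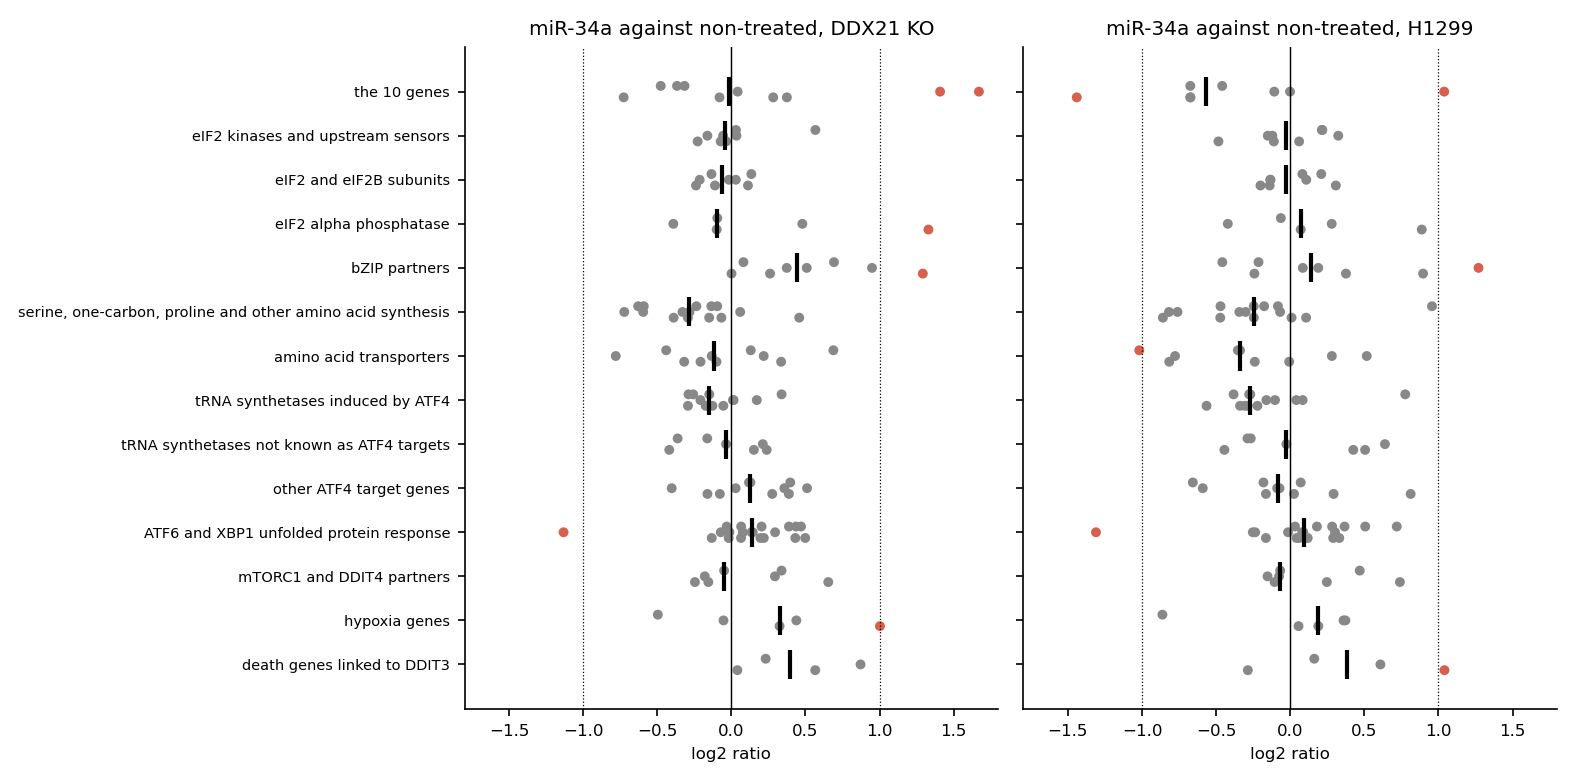
Log2 ratios of miR-34a to non-treated cells for each entering gene of the pathway lists, in DDX21 KO (left) and H1299 cells (right). Points are genes, red where called at 2-fold, black bars are list medians and dotted lines mark 2-fold. Amino acid synthesis genes have medians of -0.28 and -0.25, and XBP1 is the point beyond -1 in the unfolded protein response row of both panels.

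The mean centred profile of the 10 members over the 4 libraries was 0.53 and 0.35 in miR-34a and non-treated DDX21 KO cells and -0.40 and -0.49 in miR-34a and non-treated H1299 cells, on the log2 CPM scale. Of 12296 other genes with at least 50 counts in every library, NKX2-5, IFRD1, NHEJ1, DOCK11 and PTENP1 lay nearest to it, at Euclidean distances of 0.0639 to 0.108. The mean profile is pulled by NUPR1 and GDF15, which did not have 50 counts in every library. It lies higher in miR-34a than in non-treated H1299 cells, while 7 of 8 entering members had log2 ratios below 0 there. The mean thus does not describe most members, and the distances rest on 4 libraries, so nearness is a description only.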

How the data were processed

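Libraries were stranded and came from total RNA after removal of ribosomal RNA, per the labels' protocols. Bowtie2 2.0.6, TopHat2 2.0.9 and the build GRCh38 are named in the submitters' processing notes, while the tool that counted reads, and its use of strand, were not given in the sources used here. Estimated counts per gene and per transcript, as whole numbers, and FPKM per gene were deposited by the authors, per the file headers. A further deposited table by the authors of comparisons holds signed fold change scores and raw and adjusted p-values from a test not stated. Counts were scaled by TMM factors (edgeR 4.0.16, R 4.3.3). Genes with at least 50 counts in at least 1 library of a comparison entered. Log2 ratios used a prior count of 2, and intervals are exact Clopper-Pearson intervals (95%) of the split of counts, or Poisson intervals for the difference of ratios. For a fold given as at least, a count of 0 was given a floor of 3 counts per library. Log2 ratios and calls used the count of 0 with the prior count instead. The functions were tested on simulated counts. Curated transcripts are those with NM accessions. Named genes were the members, called members of each list and the 5 nearest profiles, beside values of other list genes chosen after their values were seen. Members and lists were chosen with earlier results of these data known. A background gene of the line is not reported here.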

Additional observations from a re-analysis of the deposited data

Results flagged for a closer look

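CHAC1 differed between the lines in its response to miR-34a: the log2 ratio was 0.37 in DDX21 KO and -0.67 in H1299 cells, and each counting interval excluded no change. The difference was 1.05. With 1 library per group, the difference was not tested against replicates.

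ATF4 over its curated transcripts also went opposite ways, with log2 ratios of 0.17 in DDX21 KO and -2.41 in H1299 cells and a difference of 2.59, which was not tested against replicates either. Over all transcripts both ATF4 ratios were negative, at -0.08 and -0.67.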

How the results depend on the processing

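No paired analysis was possible because each group had 1 library. DESeq2 size factors and library totals moved the median of all genes by at most 0.03 and changed no call among the members. With a count minimum of 10, 2 members were called higher with miR-34a in H1299 and 2 in non-treated DDX21 KO against H1299, GDF15 being added in each. Over its curated transcript, the interval of GDF15 with miR-34a in H1299 included no change. With a minimum of 200, GDF15 and NUPR1 no longer entered, which left 1 member higher with miR-34a in DDX21 KO, 0 higher between the lines with or without miR-34a, and 0 lower for the difference. With a prior count of 0.5 and with FPKM, 0 members were lower for the difference, NUPR1 being lost. With FPKM and, in an alternative chosen after seeing the data, with curated transcripts only, 2 members were lower with miR-34a in H1299 and 2 higher for the difference, ATF4 being added in each. ATF4 was also called between the lines with miR-34a, at 1.69 with FPKM and 2.27 with curated transcripts, and between the non-treated lines its ratio turned sign, to -0.29 with FPKM and -0.31 with curated transcripts. The stricter TGATGCAA was found in the promoter of 1 member, CHAC1. Depth limits NUPR1 and GDF15 most, whose counts in H1299 were 23 or fewer.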
